A study of Mus musculus with 6 samples.

Results

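The interferon response genes are a set of 46 genes that carry, transmit or answer an interferon signal. They were listed by name, and each was read from the array probe that bears its name and had the highest mean log2 signal over the 6 arrays. Of the 46 genes, 44 had a probe by that name among 31553 genes on the array, and Ifi27 and Ifi205 did not. Oas3 was not well above background on any array, so 43 genes were tested among 18203 genes in all, and all 43 were well above background on all 6 arrays.

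Hearts of C57BL/6 male mice were compared after 28 days of tail-suspension, which lifts the hindlimbs off the floor and is used to simulate weightlessness, and in sham mice that were fed alike in the same space without suspension. Each group had 3 mice and 3 arrays, all from total RNA of cardiac muscle labelled with 1 dye. The labels put the mice at 10 weeks at the start of suspension and also give an age of 11 weeks, and these ages cannot both hold for animals taken after 28 days of suspension. The labels name no transgene and no drug for either group. All 10 cardiomyocyte markers examined, such as Myh6 and Tnnt2, were well above background on all 6 arrays.

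Interferons are secreted proteins that warn cells of infection. Type I interferons such as interferon beta bind a receptor made of Ifnar1 and Ifnar2, and interferon gamma binds a receptor made of Ifngr1 and Ifngr2. Janus kinases at these receptors activate Stat proteins. Stat2 and Irf9 act together on a DNA element called the interferon-stimulated response element, and the interferon gamma signal reaches genes through the gamma-activated site. The genes switched on in this way block viral translation, cut viral RNA, hold back budding virus or attack the vacuoles of intracellular microbes, and in the heart they are best known from viral myocarditis.

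Levels were given as the log2 of the processed intensity relative to the 75th percentile of all probes on the same array, so that 0 is the level of that percentile and 1 is a doubling. A difference passed when its adjusted p was under 0.05 (limma with Benjamini-Hochberg adjustment over 28032 tested probes). Between tail-suspended and sham hearts 20.8% of all genes tested passed, 10.5% being higher and 10.3% lower. Of the 43 interferon response genes 8 passed, or 18.6%, so the set as a whole passed about as often as other genes. Ifi204 and Ifit2 were higher, and Ifngr2, Ifi203, Eif2ak2, Bst2, Gbp3 and Ifi44 were lower, that is 4.65% higher and 14% lower. Of the 43 genes 28 had a lower mean in tail-suspended hearts, or 65.1%, against 51.2% of all genes tested. Their median log2 fold change was -0.27, against -0.01 for all genes tested.

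The groups did not overlap for 22 of the genes tested. In 5 of them, Ifnar1, Ifngr1, Irf3, Ifit2 and Ifi204, all 3 tail-suspended hearts lay above all 3 sham hearts, or 11.6%, against 22.4% of all genes. In 17 of them all 3 tail-suspended hearts lay below all 3 sham hearts, or 39.5%, against 23.8% of all genes. With 3 hearts per group the smallest two-sided p of an exact permutation test is 0.1.

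**Figure D1:**
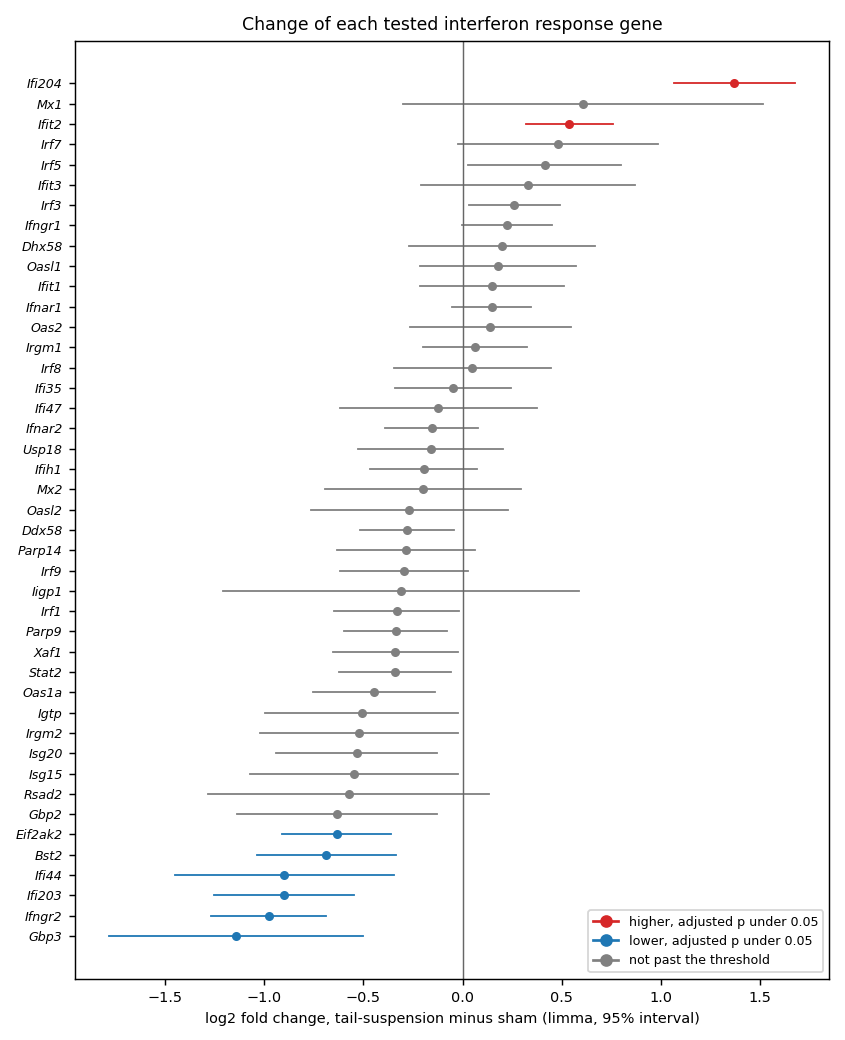
Log2 fold change of each of the 43 tested interferon response genes in tail-suspended against sham hearts (points, horizontal axis) with its 95% interval from limma (lines), ordered by size, n = 3 arrays per group. Ifi204 and Ifit2 (red) passed as higher, 6 genes (blue) passed as lower with Gbp3 lowest at -1.14, and 35 genes (grey) did not pass.

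The promoters of the genes that passed are shown first, because the response element by which interferon signals reach a gene can be read in them. The sequences are those of RefSeq on GRCm38.p6 and run from 250 bases before to 50 bases after the start of the gene, in the direction of transcription. Capitals mark matches, on either strand, to the core of the interferon-stimulated response element, GAAANNGAAA, and to the gamma-activated site, TTCNNNGAA, where N is any base. Gbp3 at chr3:142559794-142560093 and Ifi203 at chr1:173942443-173942742 held the core of the response element, Gbp3 as 2 overlapping copies that read as TTTC on the strand shown. Bst2 at chr8:71537423-71537722 held 2 overlapping copies of the core next to a gamma-activated site, which run together in capitals. Eif2ak2 at chr17:78882523-78882822 held a gamma-activated site first and the core of the response element behind the start of the gene, and Ifit2 at chr19:34550444-34550743 held a gamma-activated site.
Gbp3: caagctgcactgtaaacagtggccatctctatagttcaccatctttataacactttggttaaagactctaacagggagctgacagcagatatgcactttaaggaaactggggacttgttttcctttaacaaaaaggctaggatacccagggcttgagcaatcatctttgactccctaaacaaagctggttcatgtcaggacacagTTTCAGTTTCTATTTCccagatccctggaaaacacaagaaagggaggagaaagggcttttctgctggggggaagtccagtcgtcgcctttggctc
Ifi203: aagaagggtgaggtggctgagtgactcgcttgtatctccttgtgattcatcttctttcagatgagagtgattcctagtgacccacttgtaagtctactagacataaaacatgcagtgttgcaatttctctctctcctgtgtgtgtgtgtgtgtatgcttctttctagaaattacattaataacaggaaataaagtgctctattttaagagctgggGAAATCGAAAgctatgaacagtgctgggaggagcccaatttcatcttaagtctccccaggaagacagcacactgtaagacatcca
Bst2: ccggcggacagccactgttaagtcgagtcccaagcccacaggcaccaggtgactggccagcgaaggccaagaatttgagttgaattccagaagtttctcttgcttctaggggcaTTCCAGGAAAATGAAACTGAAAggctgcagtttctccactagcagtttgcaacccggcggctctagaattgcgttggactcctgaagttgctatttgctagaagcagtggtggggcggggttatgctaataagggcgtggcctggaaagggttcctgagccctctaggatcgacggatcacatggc
Eif2ak2: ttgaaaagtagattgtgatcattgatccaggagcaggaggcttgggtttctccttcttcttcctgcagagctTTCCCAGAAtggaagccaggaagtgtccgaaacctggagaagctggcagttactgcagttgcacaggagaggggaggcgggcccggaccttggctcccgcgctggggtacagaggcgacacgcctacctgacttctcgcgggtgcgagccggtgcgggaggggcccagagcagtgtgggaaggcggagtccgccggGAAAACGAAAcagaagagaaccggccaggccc
Ifit2: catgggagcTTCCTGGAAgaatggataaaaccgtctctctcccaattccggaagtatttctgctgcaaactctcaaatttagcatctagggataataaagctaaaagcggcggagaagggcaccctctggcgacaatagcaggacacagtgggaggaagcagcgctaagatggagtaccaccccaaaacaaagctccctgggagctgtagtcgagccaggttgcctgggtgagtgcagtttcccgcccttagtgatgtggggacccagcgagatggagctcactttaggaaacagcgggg

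The promoters of Ifngr2 and Ifi44 held no exact match to either motif in this window, and Ifi204 had no promoter in the table. Variants with another spacing between the repeats were not searched for in any promoter. Of the 46 interferon response genes 36 had a promoter in the table. The core of the response element was present for 18 of the 36, or 50%, against 4.0% of 27025 genes in the table, and the gamma-activated site for 12, or 33.3%, against 9.6%. Gbp3, Ifi203 and Ifit2 each had a further promoter in the table, which held no match and is not shown.

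Among the receptor chains Ifngr2, the signalling chain of the interferon gamma receptor, was lower in tail-suspended hearts. Its level was 5.49, 5.36 and 5.37 in the 3 sham hearts and 4.65, 4.40 and 4.25 in the 3 tail-suspended hearts, read at chr16:91563982-91564041 on mm9. Every tail-suspended heart lay well below every sham heart. The log2 fold change was -0.98 with an SE of 0.12, which is 1.97-fold lower, at an adjusted p of 0.00544 (limma).

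The ligand-binding chain Ifngr1 did not pass, with 3.32 ± 0.04 in sham and 3.55 ± 0.12 in tail-suspended hearts (SD, n = 3 each) and an adjusted p of 0.132 (limma). For the type I receptor, Ifnar2 was 2.79 ± 0.05 in sham and 2.64 ± 0.13 in tail-suspended hearts (SD, n = 3 each), with an adjusted p of 0.29 (limma). Ifnar1 was 1.09 ± 0.04 and 1.24 ± 0.07 by its brightest probe (SD, n = 3 each), with an adjusted p of 0.243 (limma). A dimmer probe of Ifnar1 had a log2 fold change of -0.22 where the brightest had 0.15, and neither passed.

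None of the 7 transcription factors of the pathway passed. Stat2, which carries the activation domain of the interferon complex, was 1.86, 1.75 and 1.86 in sham hearts and 1.52, 1.65 and 1.27 in tail-suspended hearts. All 3 tail-suspended hearts lay below all sham hearts, and the log2 fold change of -0.34 (SE 0.12) missed the threshold with an adjusted p of 0.0851 (limma). Irf9, its DNA-binding partner, was 2.13, 2.12 and 2.05 in sham hearts and 1.78, 2.06 and 1.57 in tail-suspended hearts. Replicate 2 of tail-suspension lay inside the sham range and the other two below it. Irf7, which amplifies the transcription of type I interferon genes, was -1.15, -1.0 and -1.28 in sham hearts and -0.44, -0.40 and -1.14 in tail-suspended hearts. Here replicates 1 and 2 of tail-suspension lay above the sham range and replicate 3 inside it. The log2 fold changes were -0.30 for Irf9 and 0.48 for Irf7, with adjusted p of 0.157 and 0.144 (limma). Irf5, a factor of innate immune cells, had a log2 fold change of 0.41 and did not pass (adjusted p 0.113, limma).

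Of the 4 cytosolic RNA sensors Eif2ak2 passed. Eif2ak2, also called PKR, is a kinase that stops translation when it binds viral RNA. Its level was -0.49, -0.41 and -0.37 in sham hearts and -1.15, -0.84 and -1.18 in tail-suspended hearts, read at chr17:79252168-79252227 on mm9. The tail-suspended hearts all lay below the sham hearts, and replicate 2 lay nearest to them. The log2 fold change was -0.63 (SE 0.12) with an adjusted p of 0.0158 (limma). Ddx58, Ifih1 and Dhx58, the sensors of the RIG-I family, did not pass.

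Of the 8 antiviral effectors Ifit2 was higher, Bst2 was lower and 6 did not pass. Ifit2, one of a family of interferon-induced proteins that act on viral RNA and translation, was -0.78, -0.75 and -0.86 in sham hearts and -0.23, -0.18 and -0.37 in tail-suspended hearts, at chr19:34650244-34650303 on mm9. The groups were apart, with replicate 3 of tail-suspension nearest to the sham hearts. Its log2 fold change was 0.54 (SE 0.09) with an adjusted p of 0.0131 (limma). Bst2, also called tetherin, holds budding virus at the cell surface. It was 2.83, 3.11 and 3.22 in sham hearts and 2.43, 2.53 and 2.15 in tail-suspended hearts, at chr8:74058603-74058662 on mm9. The highest tail-suspended heart lay under the lowest sham heart, and the log2 fold change was -0.69 (SE 0.15) with an adjusted p of 0.0246 (limma).

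Mx1, a dynamin-like GTPase, spread most within a group, but it was dim, with intensities between 19.7 and 65.16. It was -3.79, -3.89 and -3.93 in sham hearts and -3.10, -2.53 and -4.17 in tail-suspended hearts. Replicates 1 and 2 of tail-suspension lay above the sham hearts and replicate 3 below them. The log2 fold change of 0.61 did not pass (adjusted p 0.286, limma). Rsad2 (viperin) had a log2 fold change of -0.57 with adjusted p 0.205, and Isg20, an exonuclease of viral RNA, had -0.53 with adjusted p 0.069 (limma for both).

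None of the 4 tested genes of the oligoadenylate synthetase family passed. These enzymes make the second messenger that activates RNase L. Oas1a came nearest, with 1.59, 1.55 and 1.42 in sham hearts and 1.07, 1.29 and 0.86 in tail-suspended hearts. The groups were apart, and the log2 fold change of -0.44 (SE 0.13) had an adjusted p of 0.0531 (limma). Isg15, a ubiquitin-like protein joined to other proteins after interferon, was 2.12, 2.30 and 2.18 in sham hearts and 1.68, 2.09 and 1.19 in tail-suspended hearts. All tail-suspended hearts lay below the sham hearts, replicate 2 only just, and the log2 fold change of -0.55 did not pass (adjusted p 0.118, limma). The probe of Isg15 shares a run of 35 bases with a probe of Gm9706, so its level is uncertain. A second probe of Isg15 shares no such run and had a log2 fold change of -0.60, with the groups overlapping and an adjusted p of 0.123 (limma). Isg15 therefore counts among the genes whose groups were apart by the first probe only. The same held for Oas1a, Isg20, Ddx58 and Xaf1, whose groups overlapped by a dimmer tested probe. These dimmer probes had log2 fold changes of -0.27, -0.35, 0.08 and -0.25, and none passed. Ifnar1 counted as above by its brightest probe, but by its dimmer tested probe all tail-suspended hearts lay below all sham hearts.

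Of the 7 immunity-related and guanylate-binding GTPases, proteins that gather on the vacuoles of intracellular microbes, Gbp3 passed as lower and none as higher. Gbp3 was 1.35, 1.22 and 1.09 in sham hearts and 0.01, 0.67 and -0.44 in tail-suspended hearts, at chr3:142236032-142236091 on mm9. The sham hearts lay close together, and the tail-suspended hearts lay below them and far from each other. The log2 fold change was -1.14 (SE 0.27), or 2.20-fold lower, with an adjusted p of 0.0314 (limma). Gbp2 had a log2 fold change of -0.63, Irgm2 of -0.52 and Igtp of -0.51, and none of the 3 passed (adjusted p 0.077, 0.118 and 0.118, limma). For Irgm2 and Igtp replicate 2 of tail-suspension lay inside the sham range while replicates 1 and 3 lay below it. Of the remaining interferon-induced genes Ifi44 was lower, with -1.04, -0.77 and -1.0 in sham hearts and -1.93, -1.32 and -2.24 in tail-suspended hearts, at chr3:151394035-151394094 on mm9. The tail-suspended hearts again lay below the sham hearts and apart from each other, and the log2 fold change was -0.90 (SE 0.23) with an adjusted p of 0.0398 (limma).

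The other 20 genes had log2 fold changes between -0.34 and 0.33 and did not pass. They were Irf1, Irf3 and Irf8 among the transcription factors, the sensors Ddx58, Ifih1 and Dhx58, the effectors Ifit1, Ifit3 and Mx2, the synthetases Oas2, Oasl1 and Oasl2, Usp18, which removes Isg15 from proteins, the GTPases Iigp1, Irgm1 and Ifi47, the ADP-ribosyltransferases Parp9 and Parp14, and the interferon-induced Ifi35 and Xaf1. The smallest adjusted p among them was 0.0714 (limma).

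Ifi203 and Ifi204, which belong to the PYHIN family of DNA-binding proteins and lie in a cluster of such genes on chromosome 1, moved in opposite directions. Ifi204 can sense foreign DNA and regulates growth and differentiation. It was 2.04, 2.08 and 2.18 in sham hearts and 3.59, 3.22 and 3.61 in tail-suspended hearts, at chr1:175677647-175677706 on mm9. All tail-suspended hearts lay above all sham hearts by more than 1 log2 unit. The log2 fold change was 1.37 (SE 0.13), or 2.58-fold higher, with an adjusted p of 0.00268 (limma).

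Ifi203 was 3.27, 3.31 and 3.37 in sham hearts and 2.36, 2.72 and 2.17 in tail-suspended hearts, at chr1:175850536-175850595 on mm9. The sham hearts were nearly level, and all tail-suspended hearts lay below them. The log2 fold change was -0.90 (SE 0.15) with an adjusted p of 0.0118 (limma). The other probes of both genes moved the same way and passed. The dimmer probe of Ifi204 was higher by 1.20, and 3 dimmer probes of Ifi203 had log2 fold changes of -0.91, -1.08 and -1.71. For the last of these no tail-suspension array had a signal well above background, and Ifi203 was at least 2.84-fold lower by that probe. The brightest probe of Ifi204 shares a run of 18 bases with a probe of a nearby noncoding region, and no other probe of the pair shared 16 bases or more with a probe of another gene.

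**Figure D2:**
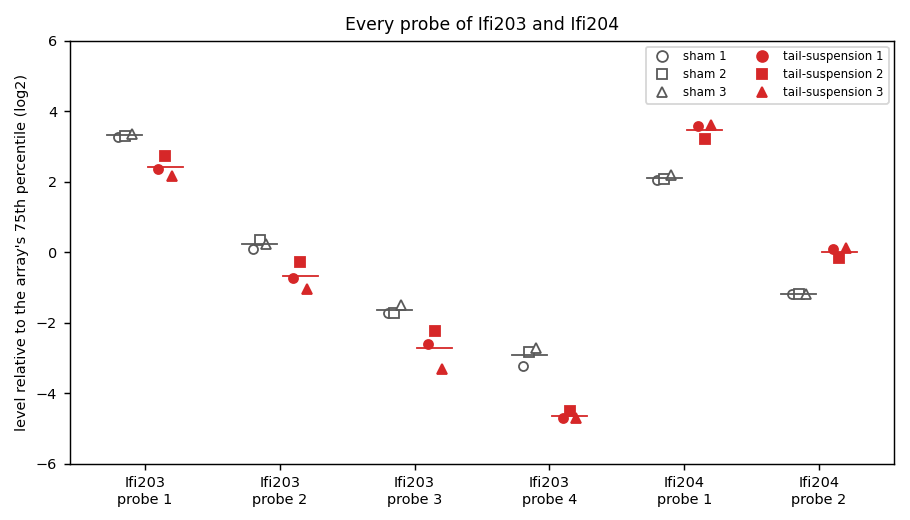
Level of every probe of Ifi203 and Ifi204 (log2 relative to the 75th percentile of the array, vertical axis) on the 3 sham (open symbols) and 3 tail-suspension arrays (red symbols), with horizontal lines at the group means. Levels are comparable within a probe only: all 4 probes of Ifi203 were lower and both probes of Ifi204 were higher under tail-suspension, with no overlap of the groups.

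The tail-suspended hearts differed more from each other than the sham hearts did. The median SD of the 43 genes was 0.09 over the sham arrays and 0.27 over the tail-suspension arrays, against 0.12 and 0.14 for all genes tested. The SD was larger under tail-suspension for 39 of the 43 genes, or 90.7%, against 55.2% of all genes tested. Irf3, Ifit3, Rsad2 and Bst2 were the exceptions. With other scalings of the arrays the count was 38 or 39. These genes were measured on the same 6 arrays, so they are not independent replicates, and this difference in spread was not tested.

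**Figure D3:**
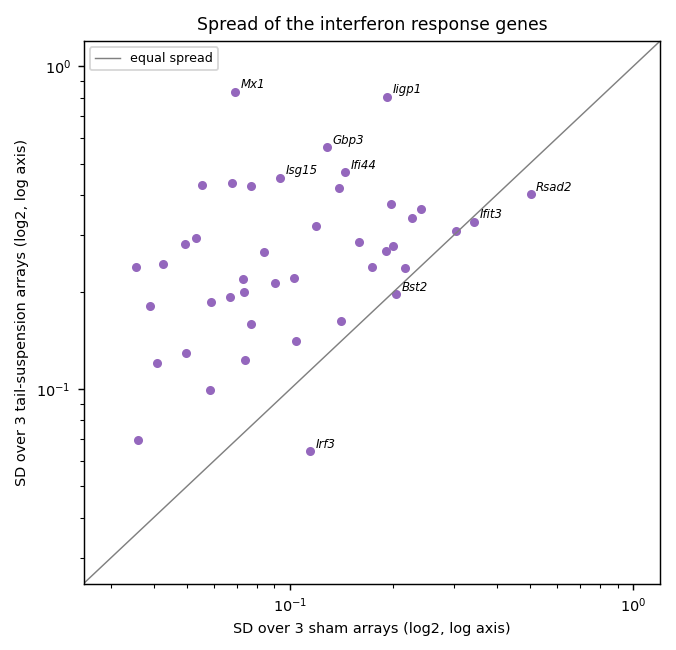
SD of each of the 43 tested genes over the 3 sham arrays (horizontal axis) and the 3 tail-suspension arrays (vertical axis), in log2 units on log axes, with a line of equal spread. Of the 43 points 39 lie above the line, and Mx1 and Iigp1 spread most under tail-suspension.

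The spread had the same order in most genes. Among the 3 tail-suspended hearts replicate 2 was the highest for 30 of the 43 genes (69.8%, against 36.4% of all genes tested), and replicate 3 was the lowest for 31 (72.1%, against 32.6%). Relative to the sham mean the median difference of the genes was -0.15 in replicate 1, -0.08 in replicate 2 and -0.47 in replicate 3, whereas for all genes tested it was -0.00, -0.01 and -0.02. Replicate 3 lay below all sham hearts for 29 of the 43 genes (67.4%, against 39.6% of all genes tested). For replicate 1 this held for 26 genes (60.5%, against 36.2%) and for replicate 2 for 19 (44.2%, against 37.3%). Without replicate 3 the median log2 fold change of the set was -0.18, and without replicate 2 it was -0.40.

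**Figure D4:**
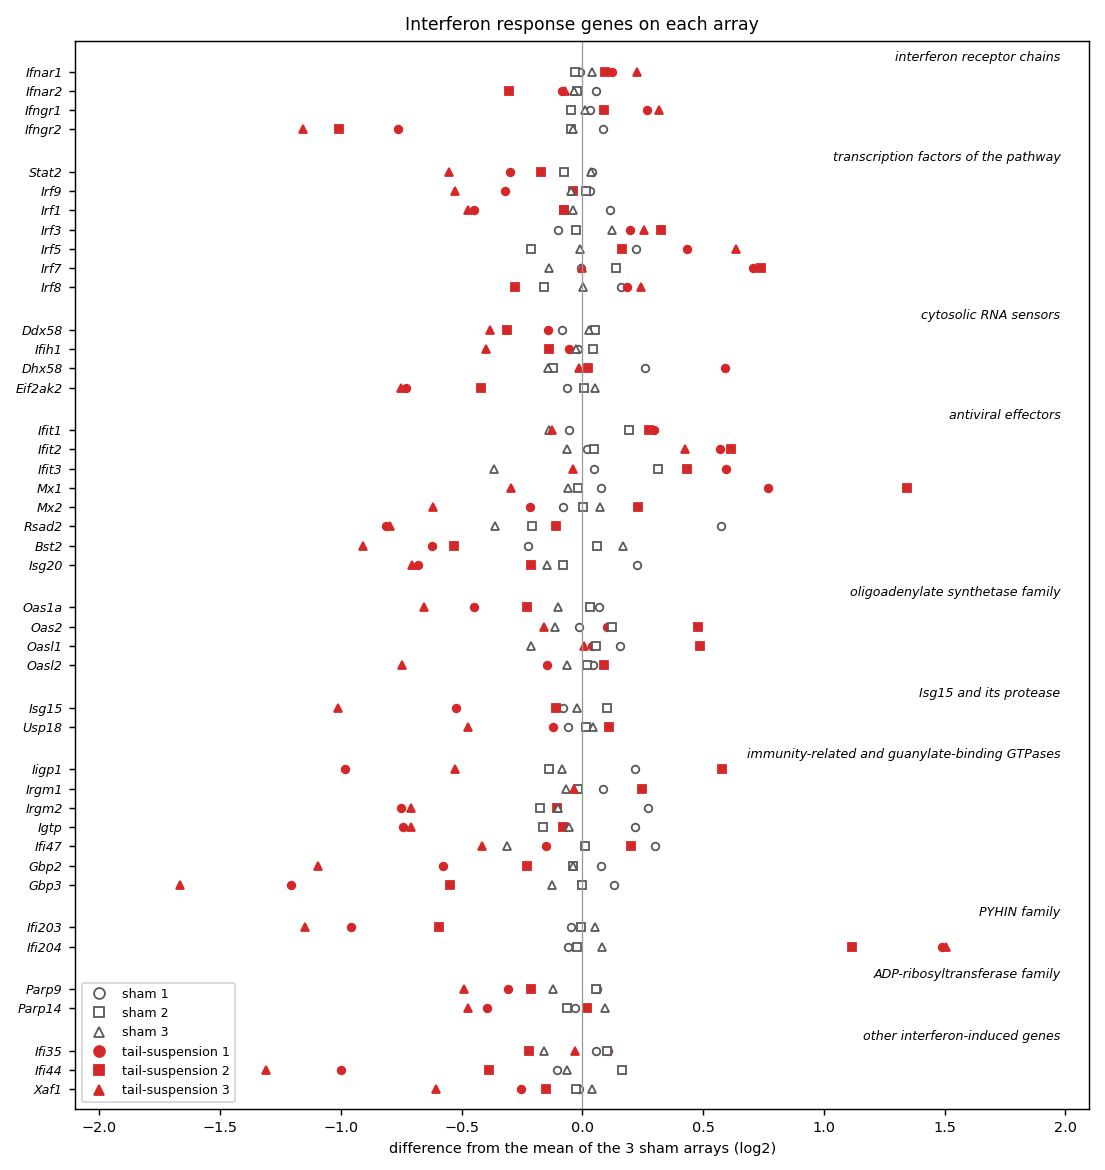
Difference of each array from the mean of the 3 sham arrays (log2, horizontal axis) for the 43 tested interferon response genes, grouped by role. Sham arrays (open symbols) lie close to 0, whereas the tail-suspension arrays (red) spread, with replicate 2 (square) most often the highest of the 3 and replicate 3 (triangle) most often the lowest.

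Calls changed with the hearts that were included. Without replicate 2 of tail-suspension 16 of the genes passed as lower and 2 as higher, and the 16 took in the 6 lower genes named above together with Irf9, Irf1, Isg20, Oas1a, Isg15, Iigp1, Irgm2, Igtp, Gbp2 and Parp14. That is 37.2% lower and 4.65% higher, against 9.97% and 10.5% of all genes tested without that heart. Without replicate 3 of tail-suspension 2 passed as lower (Ifngr2 and Ifi203) and 4 as higher (Irf7, Ifit2, Mx1 and Ifi204), or 4.65% and 9.3%, against 3.6% and 4% of all genes tested. Without replicate 1 of tail-suspension 3 passed as lower (6.98%, against 5.81%). Without sham replicate 1, 2 or 3 the lower genes were 4, 2 and 3 (9.3%, 4.65% and 6.98%, against 4.11%, 3.02% and 7.66%). Gbp3 and Ifi44 passed only without replicate 2 of tail-suspension, Bst2 only without that heart or sham replicate 1, and Ifi204, Ifit2, Ifngr2 and Ifi203 whichever heart was left out. Eif2ak2 did not pass without sham replicate 2 or without replicate 3 of tail-suspension.

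The arrays lay on 1 slide, the sham arrays and replicate 1 of tail-suspension in its first row and the other two in its second. Within the first row replicate 1 alone was compared with the sham hearts, which is also what a fit with the row as a block does. That fit takes its spread from the sham hearts and from replicates 2 and 3 of tail-suspension, and replicate 1 is assumed to vary like them. There Ifi204 passed, with a log2 fold change of 1.49 and an adjusted p of 0.0323 (limma), and none passed as lower. The values of the genes that had been called lower were -0.76 for Ifngr2, -0.96 for Ifi203, -0.73 for Eif2ak2, -0.62 for Bst2, -1.21 for Gbp3 and -1.0 for Ifi44, and Ifit2 was 0.57. Over all genes the row block left 324 probes higher and 177 lower, against 2984 and 2691 without it.

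The split by promoter was made after the values were seen. The 16 tested genes with the core of the response element had a median log2 fold change of -0.52, with 4 lower (Bst2, Eif2ak2, Gbp3 and Ifi203) and 0 higher. The 18 tested genes with a promoter and no core had a median of -0.09, with 2 lower and 1 higher. This split also followed role. All receptor chains and all Irf factors of the set lay among the genes without the core. Stat2 was the only transcription factor with it. The core and the role of a gene cannot be told apart in this split. Outside the set, 345 tested genes with the core had a median of -0.00, with 31 higher and 34 lower (8.99% and 9.86%). The 9542 without it had a median of -0.03, with 1021 higher and 1089 lower. For the gamma-activated site the median was -0.39 in the 12 tested genes of the set with it and -0.27 in the 22 without it.

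The rest of the pathway was followed through 117 further genes, of which 101 had a probe and 81 were tested. Of these 11 were higher and 11 lower, or 13.6% each, against 10.5% and 10.3% of all genes tested. Of 15 interferon genes with a probe 4 were tested and 0 passed. Interferon beta (Ifnb1) and interferon gamma (Ifng) had no signal well above background on the 6 arrays.

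Of 12 further kinases and regulators Socs3 and Pias1 were higher and Socs1 was lower. The Socs proteins are feedback inhibitors of Janus kinases, and Pias1 restrains Stat proteins. Socs3 was 0.77, 0.43 and 0.48 in sham hearts and 2.33, 1.84 and 1.97 in tail-suspended hearts. Its groups were far apart, with a log2 fold change of 1.49 and an adjusted p of 0.0035 (limma). Socs1 was -1.46, -1.77 and -1.64 in sham hearts and -2.46, -2.08 and -2.73 in tail-suspended hearts. All tail-suspended hearts lay below the sham hearts, with a log2 fold change of -0.80 and an adjusted p of 0.0265 (limma). The kinases at the receptors did not pass, with log2 fold changes of -0.02 for Jak1 and 0.21 for Tyk2 (adjusted p 0.904 and 0.153, limma).

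Among 12 further sensors and adaptors Ticam1, an adaptor of Toll-like receptors, was higher by 0.45 on the log2 scale. Traf3, which passes sensor signals on to interferon genes, had a log2 fold change of -0.86, and Tmem173 (STING), the adaptor of cytosolic DNA sensing, had -0.51. Their adjusted p were 0.0223, 0.0075 and 0.0407 (limma). Of 53 further interferon-induced genes 8 were higher and 8 lower, or 15.1% each. Cxcl9, a chemokine induced by interferon gamma, had a log2 fold change of -2.35, while Ifitm1, a membrane protein that restricts viral entry, had 2.05 and Mnda, another PYHIN gene, had 1.74 (adjusted p 0.00559, 0.00638 and 0.00214, limma). Cxcl9 was -0.19, -0.36 and 0.26 in sham hearts and -2.71, -1.81 and -2.82 in tail-suspended hearts, so replicate 2 was again the least low. RefSeq now names Mnda as Ifi211, and it neighbours Ifi203 in the cluster.

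Markers of blood and immune cells moved with the groups too, and in bulk tissue fewer cells of a type and less RNA per cell cannot be told apart. In the sums below the number of genes counts the tested ones. The sums themselves also take in genes of the list that had a probe but were not tested. Sums without the brightest gene, and the share of that gene, cover tested genes only. Summed relative intensity over red cell markers such as Hba-a1, 7 of them tested, was 1094 to 1479 in sham hearts. It was 327, 899 and 467 in replicates 1, 2 and 3 of tail-suspension, so replicate 2 was again the highest of the 3. Of these markers 1 was lower and 0 higher by the test, and Epb4.2 and Klf1 had no signal well above background on the 6 arrays. Over 8 neutrophil markers the sum was 146 to 173 in sham and 209 to 240 in tail-suspended hearts, but Csf3r, which did not pass, made up 78.1% to 99% of it. Without Csf3r it was 1.75 to 2.19 in sham and 52.6, 9.15 and 18.4 in tail-suspended hearts. Of these markers 5 were higher, the median log2 fold change was 3.46, and Mpo, Retnlg and Ltf had no signal well above background in sham hearts. Mpo, Retnlg and Ltf were tested only through the tail-suspension arrays, so the count and the median rest partly on sham values near background. They were at least 2.195-fold, 12.25-fold and 6.25-fold higher. S100a8 and S100a9, which also passed as higher, were well above background on all 6 arrays. Over 14 macrophage and monocyte markers the sum was 78.8 to 86.4 in sham and 87.1 to 95.7 in tail-suspended hearts. Itgam, which did not pass, made up 28.8% to 51.4% of it. Without Itgam it was 38.9 to 52.1 in sham and 57.1, 43.5 and 68 in tail-suspended hearts, so the groups overlapped. Of these markers 2 were higher (Cd163 and Mertk) and 2 lower (Cx3cr1 and Aif1). Cd163 had no signal well above background in sham hearts, and it was at least 3.38-fold higher in tail-suspended hearts. Over 8 lymphocyte markers the sum was 5.43 to 5.95 in sham and 4.56 to 5.33 in tail-suspended hearts, with 1 higher and 2 lower. Cd3g, Cd8a, Cd8b1 and Klrb1c had no signal well above background on the 6 arrays. Cd4, which did not pass, made up 31.8% to 38.1% of the sum. Without Cd4 the sum was 3.25 to 3.81 in sham and 2.86, 3.51 and 2.98 in tail-suspended hearts, so the groups overlapped. Over 6 dendritic cell markers it was 101 to 121 and 106 to 152, of which Siglech, which did not pass, made up at least 99.4%. Without Siglech it was 0.496 to 0.775 in sham and 0.635, 0.849 and 0.751 in tail-suspended hearts, and Flt3 and Cd209a were higher by the test. Flt3 and Cd209a were each well above background on only 1 sham array and on all 3 tail-suspension arrays. For 10 endothelial markers the sum was 212 to 225 and 206 to 226, with 1 higher and 4 lower. Egfl7, one of the 4 lower, made up 42.5% to 53.6% of it. Without Egfl7 it was 99.5 to 108 in sham and 128, 116 and 119 in tail-suspended hearts. That sum holds Vwf, which passed as higher with a log2 fold change of 0.99, and Flt1, which had 0.36 and did not pass. Of the 10 endothelial markers 6 had a lower mean in tail-suspended hearts. Over 8 fibroblast markers the sum was 283 to 300.1 and 280 to 353, with 1 lower. Dcn, which did not pass, made up 69.6% to 88.7% of it. Without Dcn it was 69 to 91.2 in sham and 47.5, 31.6 and 61.8 in tail-suspended hearts. Over 10 cardiomyocyte markers the sum was 4391 to 4749 and 4049 to 4111, with 1 lower. The summed level of the 43 interferon response genes was 188 to 196 in sham hearts and 162, 173 and 149 in tail-suspended hearts. Without Ifngr2, which made up 12.2% to 23% of it, the sum was 146 to 151 in sham hearts and 137, 152 and 130 in tail-suspended hearts, so replicate 2 then lay above the sham hearts. The part of these cells in the changes of the interferon response genes was not tested.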

How the data were processed

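Total RNA of 3 sham and 3 tail-suspended mouse hearts was measured on 1-colour Agilent arrays. The authors extracted the scans with Agilent Feature Extraction 10.7.1.1 (submitters' processing notes) and deposited a processed intensity for each spot, together with a mean and a background intensity. They also deposited a table of log2 values, which followed the log2 processed intensity of the same array (r of at least 0.999) with column medians of 4.32 and sorted columns within 9e-04 of each other, as after quantile normalization; its direction is that of the intensity and no centring was seen.

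The log2 of each array's 75th percentile (an intensity of 300 to 375) was subtracted from its log2 processed intensities and the spots of a probe were averaged, without control spots and outlier flags (146 to 212 spots per array). Each array held 62976 spots and 55681 probes, of which 50.9% to 53.4% were well above background and none was saturated. Where 50% or more of the spots of a probe carried the flag for a signal well above background, the probe was taken to have it, and it was tested when this held on every array of at least 1 group (28032 probes). The groups were compared with limma 3.58.1 in R 4.3.3 (lmFit, then eBayes, without covariates), and p-values were adjusted by Benjamini-Hochberg with a threshold of 0.05. A gene was read from its brightest probe, and 4610 names that are genome regions were not counted as genes. The 3 arrays per group limit the precision, and nothing in the labels describes repeated arrays of a mouse, so p-values measure the spread between these hearts.

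Members and gene lists were chosen with earlier results of these data known. Every member is accounted for. Values are given for members past the threshold, the receptor chains, Stat2, Irf9, Irf7 and the 10 largest changes that did not pass, and for the 3 largest changes among the called genes of each further list, plus Jak1 and Tyk2. Some genes of the lists are not reported by name here. Coordinates are those of the files (mm9), where exons and UTRs were not annotated here. All 46 symbols matched RefSeq (GRCm38.p6), which gave names and promoters. The alternatives were other background corrections, scalings, filters, variance models, the methods' t-test, blocks for replicate number and slide row, the mean over probes, and each array left out. The steps were tested on simulated data.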

Additional observations from a re-analysis of the deposited data

How the results depend on the processing

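The scaling alternatives, normexp background correction, the stricter filter, outlier spots kept, the intensity trend and the mean over probes changed no count of called genes by more than 1.5 times. Main counts were 2 higher and 6 lower for the interferon response genes, 11 and 11 for the further pathway genes and 2984 and 2691 for all probes. Without the filter on dim probes, which raises the number of tests, they were 1 and 2, 4 and 2, and 1038 and 805. With array weights the lower counts were 15, 18 and 4085. When p-values of the methods' t-test were adjusted by Benjamini-Hochberg, 1 interferon response gene was lower, the pathway counts were 5 and 5, and the probes 1456 and 1203. At the methods' unadjusted threshold that test called 5 higher and 10 lower among the 43 genes (34.9%), against 36% of all genes tested. With the slide row as a block, which compares replicate 1 of tail-suspension with the sham hearts and assumes that it varies like the other arrays, the counts were 1 and 0, 3 and 0, and 324 and 177. At an unadjusted p under 0.05 limma without the block called 4 higher and 17 lower among the 43 genes (48.8%), against 39.1% of all genes tested.

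The arrays share replicate numbers across groups, but same-numbered arrays did not deviate together (correlations -0.02, -0.02 and 0.05 over 28003 probes). With the replicate number as a block, 2 genes of the set were higher and 5 lower, the pathway counts were 6 and 3, and the probes 1725 and 1432. When each array was left out in turn, the interferon response genes had 2 to 4 higher and 2 to 16 lower, the further pathway genes 4 to 11 higher and 2 to 15 lower, and all probes 1012 to 2887 higher and 757 to 2690 lower. The median log2 fold change of the set was between -0.40 and -0.18 there and -0.15 with the row block.

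Ifi204 passed under all 19 alternatives, the row block included, Ifngr2 under 18, Ifit2 and Ifi203 under 17, Eif2ak2 under 14 and Bst2, Gbp3 and Ifi44 under 11 each. Ifnar1 turned to -0.036 with the mean of its tested probes. Jak1, at -0.02, turned to 0.0394 with normexp and 5e-04 with quantile normalization, and lay between -0.0971 and 0.02 when an array was left out. Of the 43 genes 9 changed sign under some alternative, none with an adjusted p under 0.69 there (limma). The cause of these shifts was not tested.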
